A study of Mus musculus with 127 samples.

Results

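The genes of mitosis and the spindle were followed in single erythroblasts, the dividing precursors of red cells, from the marrow of C57BL/6J mice. The set holds 53 of the 24320 gene symbols of the deposited table, chosen by name: the genes of mitotic entry, the spindle, the kinetochore, chromosome segregation and cytokinesis. Each of the 127 samples was 1 cell, captured on a microfluidic chip and sequenced after SMART-Seq amplification. The groups were 48 cells with Flvcr deleted, 31 cells of wild-type mice that had received the hormone erythropoietin (EPO), a driver of red cell formation, and 48 cells of untreated wild-type mice. Flvcr encodes a heme exporter. The labels used here name neither the allele, the driver and time of the deletion, the EPO dose and the ages nor the animal of a cell. Each group therefore counted as 1 sample, no difference below has a replicate check, and no test was run; every count and interval describes these cells alone. In the column names Flvcr-deleted cells shared 1 prefix, wild-type cells another, and EPO-treated cells had the remaining prefixes of 4. The prefix was taken here to name the chip, which the column names do not state. Chip and group therefore cannot be told apart.

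Cells were classed by letter, A to D, after their Ter119 fluorescence, Ter119 being a surface antigen of maturing red cells. The main comparisons use classes B, C and D, which held 16, 9 and 5 Flvcr-deleted cells, 11, 9 and 4 EPO-treated cells, and 10, 19 and 13 wild-type cells. The letters did not cover the same normalized Ter119 values in every group. The median of class B was 0.381 in Flvcr-deleted, 0.099 in EPO-treated and 0.452 in wild-type cells, and that of class D was 0.849, 0.556 and 0.823 in the same order of groups. Among EPO-treated cells the lowest class B and C values, 0.001 and 0.003, lay below the highest class A value, 0.033. Both were from the chip with fewer EPO-treated cells, so the values may not share a common scale. In classes B to D at least 3 of 14 erythroid markers were detected in 30 of 30 Flvcr-deleted, 24 of 24 EPO-treated and in 42 of 42 wild-type cells. Of 16 granulocyte and monocyte markers at least 3 were found in 1 of 30, 0 of 24 and 1 of 42 cells, and Elane, Lyz2, S100a8 and S100a9 were detected in none. The erythroid markers were themselves lower, as were many other genes. By the rule given below 10 of 14 (median difference -1.76) were lower between Flvcr-deleted and wild-type cells, against 48.3% of all genes (-1.08). Between EPO-treated and wild-type cells 9 of 14 (-1.65) were lower, against 42% of all genes (-0.99). Between Flvcr-deleted and EPO-treated cells 0 of 14 (-0.18) were lower, against 8.86% of all genes (-0.12). The summed log2 level of the erythroid markers ran from 61.0 to 123 in Flvcr-deleted, from 75.6 to 118 in EPO-treated and from 99.7 to 142 in wild-type cells. Globin transcripts made up a median of 90.7% of the summed RPKM in Flvcr-deleted, 64.8% in EPO-treated and 69.6% in wild-type cells; the part of either in the results below was not tested. Class A was unlike between groups and is given apart. The deleted gene, listed under its older symbol Mfsd7b, was found in 0 of 48 cells labelled Flvcr-deleted (exact 95% interval up to 7.4%), 0 of 31 EPO-treated cells (up to 11.2%) and 1 of 48 wild-type cells, too seldom to check the labels.

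Mitosis begins when Cdk1 with a B-type cyclin is switched on. Chromosomes are compacted by condensin, captured at their kinetochores by spindle microtubules and held back by the spindle assembly checkpoint until all are attached; the anaphase-promoting complex then releases the sister chromatids, and the central spindle directs cytokinesis. Most of these genes are transcribed late in the cell cycle, in part through a promoter element named the cell cycle homology region (CHR), bound by MuvB complexes, and through CCAAT boxes, bound by NF-Y. Erythroblasts divide several times as they mature, then leave the cycle and expel their nucleus. All levels below are log2(RPKM + 1), called log2 levels, where RPKM is reads per kilobase of transcript, scaled to sequencing depth; detection means an RPKM of 1 or more.

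Promoters of 47 of the 53 genes were found in the RefSeq promoter table (build GRCm38.p6, 250 bases before to 50 bases after the gene start); Ccna2, Aurkb, Incenp, Tpx2, Kif20a and Smc4 were not matched. The windows of 8 of them, 100 bases before to 50 after the start, are printed 5′ to 3′ along the gene, with CHR (TTTGAA or TTCGAA, either strand) and CCAAT (either strand) matches in capitals. Of these, 6 are genes from different steps of mitosis that hold both elements, and Cks2 and Pttg1 are among the 10 matched genes without a CHR match; all 8 were chosen after their motifs and values were seen. The lines give Cdk1 (chr10:69352863-69353012, minus strand), Ccnb2 (chr9:70421505-70421654, minus), Kif22 (chr7:127042371-127042520, minus), Cdc20 (chr4:118437294-118437443, minus), Kif11 (chr19:37376282-37376431, plus), Top2a (chr11:99024140-99024289, minus), Cks2 (chr13:51645132-51645281, plus) and Pttg1 (chr11:43425932-43426081, minus).
Cdk1: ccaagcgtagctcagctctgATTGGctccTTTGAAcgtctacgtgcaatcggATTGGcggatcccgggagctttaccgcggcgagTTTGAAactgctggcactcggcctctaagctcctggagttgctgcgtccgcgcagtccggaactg
Ccnb2: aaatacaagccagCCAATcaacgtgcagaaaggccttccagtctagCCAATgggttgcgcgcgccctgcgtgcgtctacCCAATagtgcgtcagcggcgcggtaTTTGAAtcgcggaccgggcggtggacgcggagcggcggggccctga
Kif22: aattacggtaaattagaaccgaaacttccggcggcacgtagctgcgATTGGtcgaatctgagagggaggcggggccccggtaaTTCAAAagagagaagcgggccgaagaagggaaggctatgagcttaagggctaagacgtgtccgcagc
Cdc20: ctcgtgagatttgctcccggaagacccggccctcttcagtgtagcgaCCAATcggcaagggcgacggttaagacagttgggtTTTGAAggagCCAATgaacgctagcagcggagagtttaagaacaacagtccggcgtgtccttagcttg
Kif11: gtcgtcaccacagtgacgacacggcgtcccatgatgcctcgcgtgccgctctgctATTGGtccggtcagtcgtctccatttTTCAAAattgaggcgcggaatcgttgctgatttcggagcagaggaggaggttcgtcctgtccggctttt
Top2a: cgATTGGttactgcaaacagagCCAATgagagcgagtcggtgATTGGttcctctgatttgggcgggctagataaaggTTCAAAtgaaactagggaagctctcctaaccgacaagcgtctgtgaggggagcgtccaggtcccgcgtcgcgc
Cks2: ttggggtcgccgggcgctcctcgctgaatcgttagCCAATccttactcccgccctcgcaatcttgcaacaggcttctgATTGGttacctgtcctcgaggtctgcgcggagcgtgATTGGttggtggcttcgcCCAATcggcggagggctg
Pttg1: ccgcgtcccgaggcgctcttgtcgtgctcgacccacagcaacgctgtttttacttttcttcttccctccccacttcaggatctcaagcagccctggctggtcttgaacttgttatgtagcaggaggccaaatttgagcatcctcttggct

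A CHR match was present in 37 of 47 genes (78.7%), against 19.2% of all 32851 promoters of the same length and 6 of 33 matched DNA replication genes (18.2%). CCAAT was present in 36 of 47 (76.6%), against 37.4% of all promoters and 63.6% of the replication genes. Both elements were present in 68.1% of the 47 genes and in 7.52% of all promoters. The search for an E2F-type motif with the letters TTCCCGC, the variant TTGGCGC or the variant TTCGCGC on either strand gave 9 of 47 genes (19.1%), against 8.07% of all promoters and 20 of 33 replication genes (60.6%). Of 55 CHR matches, 1 overlapped a CCAAT match. The 10 matched genes without a CHR match were Ccnb1, Cks2, Nek2, Birc5, Mad2l1, Pttg1, Cenpe, Nuf2, Nusap1 and Ncaph, which says only that those letters are not in the window.

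**Figure D1:**
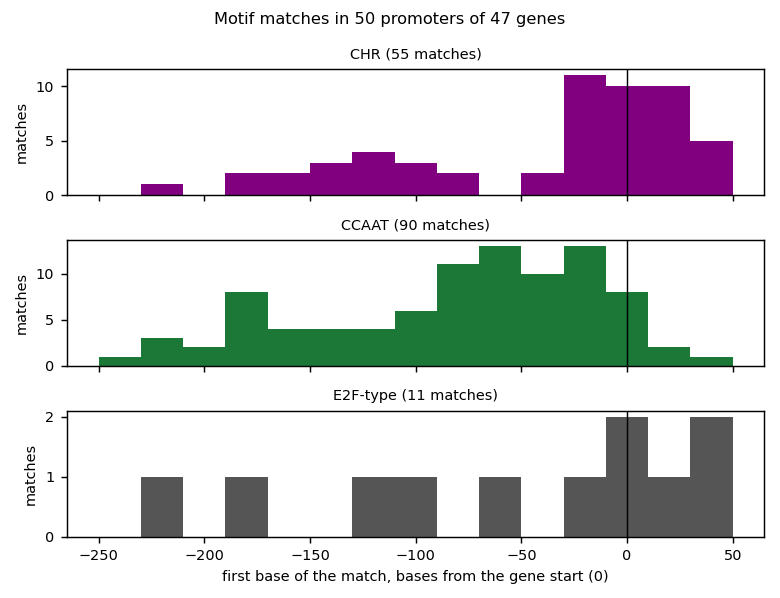
Positions of motif matches in 50 promoters of 47 genes; the horizontal axis is the first base of the match in bases from the gene start, the vertical axis the number of matches in bins of equal width. CHR matches gather around the start, where 42% of the promoters had one in bases 0 to 49 and 28% in bases -50 to -1. Of all 32851 promoters 2.46% and 2.97% had one in the same bases. A CHR match lay in bases -150 to -101 in 16% of the 50 promoters and 3.95% of all. The 11 E2F-type matches run from -216 to 41 and are too few for a comparison of positions.

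Detection per cell was the plainest difference between the groups. In classes B to D, Flvcr-deleted cells held between 3 and 43 of the 53 genes with a median of 21, EPO-treated cells between 15 and 46 with a median of 32.5, and wild-type cells between 30 and 51 with a median of 43. Below the lowest wild-type cell lay 22 of 30 Flvcr-deleted cells (73.3%, exact 95% interval 54.1 to 87.7%, counting error only) and 9 of 24 EPO-treated cells (37.5%, 18.8 to 59.4%). The groups overlapped, since the fullest Flvcr-deleted cells reached the wild-type range. Of the 53 genes, 52 were detected in a smaller share of Flvcr-deleted than of wild-type cells, all but Pttg1. The share of all genes in that order was not counted. The median number of all genes detected was 1196.5 in Flvcr-deleted and 2199 in wild-type cells, so the order is not read as particular to the set. No gene of the set was detected in every Flvcr-deleted cell, 2 were in every EPO-treated cell (Smc4 and Mki67) and 10 in every wild-type cell.

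All genes, not only these, were detected less often in the Flvcr-deleted and EPO-treated cells. The median number of genes detected in classes B, C and D was 1235, 1179 and 1214 in Flvcr-deleted cells, 1771, 1145 and 1087.5 in EPO-treated cells, and 3033.5, 2152 and 1891 in wild-type cells. Estimated depth was nearer: a median of 3.55 M reads per Flvcr-deleted cell and 4.08 M per wild-type cell, at which 1 RPKM is about 10.5 and 12.1 reads for a transcript of the set's median length, 2965 bases. Depth could not be estimated in the EPO-treated columns, in which 100% of the values had at most 2 decimals, so those cells may have been processed apart. To set cells of like detection side by side, cells with 1000 to 2000 detected genes were also compared: 12 Flvcr-deleted, 12 EPO-treated and 18 wild-type cells. Class B held 4, 5 and 2 of them in the same order, class C 4, 5 and 8, and class D 4, 2 and 8. Class-weighted differences in these cells therefore rest in part on 2 cells. Their detection was nearer but not equal, with medians of 1278, 1385 and 1565.5 genes. The median number of the 53 genes detected in these cells was 32 (16 to 43), 33.5 (15 to 46) and 42 (30 to 49) in the same order, and 5 of 12, 3 of 12 and 0 of 18 cells held fewer than 30. The part of detection in each result was not tested beyond this comparison. In 4 Flvcr-deleted class B cells (7, 13, 16 and 40) globin made up 0.32 to 2.71% of the summed RPKM while 2455 to 3452 genes were detected; they held 26, 21, 21 and 16 of the 53 genes.

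**Figure D2:**
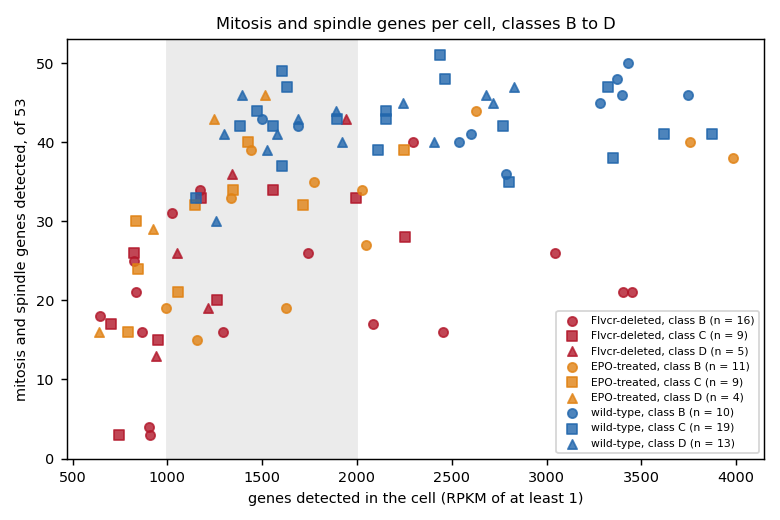
Genes detected (horizontal axis) and mitosis and spindle genes detected of 53 (vertical axis) in each cell of classes B to D; 1 symbol is 1 cell, colour gives the group, shape the class, and the grey band marks 1000 to 2000 detected genes. Wild-type cells lie at 30 or more of the 53 genes over the whole width, and 22 of 30 Flvcr-deleted cells lie below them.

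Between Flvcr-deleted and wild-type cells the difference was taken within each class and averaged over B, C and D, and a gene was counted as lower or higher where the mean difference reached 1 in size and the 3 classes shared its sign. By this rule 44 of the 53 genes (83.0%) were lower and 0 were higher in Flvcr-deleted cells. Of all 2540 genes with a mean log2 level of at least 1, 48.3% were lower and 3.74% higher, so a lower value was also common elsewhere, and of all 24320 symbols with no filter 6.32% were lower and 0.424% higher; 52 of the 53 genes met that level, all but Nek2. The median difference was -2.45 over the 53 genes, with a range of -4.28 to 0.20, and -1.08 over all genes. The set started from a higher level. Its median class means in wild-type cells were 5.03, 4.64 and 4.56 in B, C and D, against 3.31, 2.67 and 2.33 over the 2540 genes. Genes of low level have less room to fall, so these shares and medians do not compare genes of like level. The part of level was not tested, here or in the comparisons below. By class the median of the 53 was -3.16 in B, -2.53 in C and -1.88 in D. Among cells with 1000 to 2000 detected genes 27 of 53 (50.9%) were lower and 0 higher, against 19.1% lower and 16% higher of all genes, and the medians were -1.90 for the set and -0.09 for all genes. Without the 4 low-globin cells 44 genes were again lower. With class A counted as a further class 29 were lower.

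Of the cyclins and partners of Cdk1, 5 of 7 were lower, all but Cks2 and Ccna2. This count and those of the other roles in this comparison stand beside 48.3% lower of all genes. Cdk1, the kinase that drives mitotic entry, had log2 levels of 0 to 7.62 with a median of 0.54 in Flvcr-deleted cells, 0 to 7.97 with a median of 5.04 in EPO-treated cells, and 0 to 8.59 with a median of 6.11 in wild-type cells. Cdk1 was found in 13 of 30 Flvcr-deleted, 13 of 24 EPO-treated and in 40 of 42 wild-type cells. The difference between Flvcr-deleted and wild-type cells was -4.16 (-3.99, -4.38 and -4.09 in classes B, C and D), and -3.16 in cells of like detection; single cells of the groups overlapped, as they did for every gene named here. The B-type cyclins Ccnb1 and Ccnb2, which activate Cdk1, differed by -3.62 and -3.76. Ccnb2 had median log2 levels of 3.09, 6.64 and 7.66 in Flvcr-deleted, EPO-treated and wild-type cells, with highest cells at 9.11, 9.33 and 9.78, so the fullest Flvcr-deleted cell came near the fullest wild-type cell. Cdca3, a trigger of mitotic entry, differed by -3.19, and Cks1b, a small Cdk-binding protein, by -2.33.

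Its close relative Cks2 stood apart. Cks2 log2 levels ran from 0 to 10.52 with a median of 8.48 in Flvcr-deleted cells, from 0 to 10.08 with a median of 8.04 in EPO-treated cells, and from 2.98 to 9.26 with a median of 7.81 in wild-type cells. The difference between Flvcr-deleted and wild-type cells was -0.12, and Cks2 was the gene of the set detected in the largest share of Flvcr-deleted cells, 27 of 30 (90%). Ccna2, the cyclin of S phase and early mitosis, differed by -0.65, with -1.93 in class B and 0.62 in class D, and was not counted.

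Of the 3 genes grouped as mitotic kinases 2 were lower, Plk1 and Aurka. Plk1, which acts in centrosome maturation and cytokinesis, was detected in 6 of 30 Flvcr-deleted, 14 of 24 EPO-treated and in 32 of 42 wild-type cells, with median log2 levels of 0, 1.35 and 5.09 and a difference of -3.31 between Flvcr-deleted and wild-type cells. Aurka, the kinase of the spindle poles, was detected in 10 of 30, 7 of 24 and 36 of 42 cells in the same order and differed by -3.10. Nek2, a centrosome kinase, was detected in 1 of 30, 5 of 24 and 11 of 42 cells; its difference of -0.70 was not counted, and its mean level was too low for the list of 2540 genes.

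All 4 genes of the chromosomal passenger complex, which corrects faulty attachments and later marks the cleavage site, were lower. The kinase Aurkb differed by -3.20 with detection in 8 of 30 Flvcr-deleted, 12 of 24 EPO-treated and in 30 of 42 wild-type cells. Cdca8 (borealin) differed by -3.70, Birc5 (survivin) by -2.32 and the scaffold Incenp by -2.08. Birc5 had the highest level of the 4: log2 levels ran from 0 to 10.12 with a median of 7.39 in Flvcr-deleted cells, 0 to 10.07 with a median of 8.43 in EPO-treated cells, and 5.21 to 10.21 with a median of 8.78 in wild-type cells. Its highest cells were alike, and it was detected in 24 of 30 Flvcr-deleted, 21 of 24 EPO-treated and in 42 of 42 wild-type cells.

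Each of the 5 checkpoint genes was lower: the differences were -1.15 for Bub1, -2.57 for Bub1b, -3.66 for Bub3, -2.41 for Mad2l1 and -1.76 for Ttk. Bub3, a subunit that recruits Bub1 to kinetochores, had median log2 levels of 0.09 in Flvcr-deleted, 1.54 in EPO-treated and 6.77 in wild-type cells and was detected in 14 of 30, 16 of 24 and 39 of 42 cells. Ttk, the kinase that starts checkpoint signalling, was detected in 2 of 30, 10 of 24 and 18 of 42 cells. The Bub1 value was 0.02 in cells with 1000 to 2000 detected genes, and the cause of this shift was not tested.

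The step of anaphase onset was mixed, with 2 of 5 genes (40%) lower, below the 48.3% of all genes. Cdc20, the activator of the anaphase-promoting complex, differed by -2.24 with detection in 8 of 30 Flvcr-deleted, 8 of 24 EPO-treated and in 27 of 42 wild-type cells. Cdca5 (sororin), which protects cohesion, differed by -2.57 and was detected in 4 of 30, 9 of 24 and 23 of 42 cells. Ube2c, the ubiquitin-conjugating enzyme of the same complex, had median log2 levels of 8.36, 8.80 and 8.65 in Flvcr-deleted, EPO-treated and wild-type cells, was detected in 26 of 30, 23 of 24 and 40 of 42, and differed by -0.82 between Flvcr-deleted and wild-type cells. Pttg1 (securin) was at 0.20, the highest difference of the set, with 1.85 in class B and -1.21 in class D, and the protease Espl1 (separase) at -1.09 with unlike signs in the classes. A CHR match was present in the promoter of Ube2c and not in those of Cks2 and Pttg1.

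Of the kinetochore genes 3 of 5 (60%) were lower, not far from the 48.3% of all genes. Cenpa, the centromeric histone, differed by -2.32, the outer protein Cenpf by -2.33 and Nuf2 by -1.90. Ndc80, the microtubule-binding partner of Nuf2, differed by -0.98, with -1.04, -1.79 and -0.11 in classes B, C and D, just short of the size that counted. Cenpe, a kinetochore motor, differed by -3.76 in class B and 1.18 in class D.

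The 9 spindle motors and spindle assembly factors were all lower. Kif22, a motor that pushes chromosome arms outward, had the largest difference of the set, -4.28 (-5.36, -4.40 and -3.09 in classes B, C and D). Its log2 levels ran from 0 to 8.81 with a median of 0.35 in Flvcr-deleted cells, from 0 to 9.44 with a median of 3.27 in EPO-treated cells, and from 0.68 to 8.84 with a median of 7.43 in wild-type cells. Kif11, the motor that separates the spindle poles, differed by -3.37 with detection in 17 of 30 Flvcr-deleted, 22 of 24 EPO-treated and in 41 of 42 wild-type cells. Among the assembly factors Hmmr differed by -3.36, Nusap1 by -3.10, Spag5 by -2.55, Ckap2 by -2.45, Tpx2, which activates Aurka, by -2.28, and the microtubule polymerase Ckap5 by -1.61. The microtubule-depolymerizing motor Kif2c was at -1.47.

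Of the midzone and cytokinesis genes 7 of 8 were lower. The kinesin Kif20a differed by -3.76, Prc1, which bundles the central spindle, by -3.12, and Kif23 and Racgap1, which together form centralspindlin, by -3.03 and -2.83. Prc1 had log2 levels of 0 to 7.69 with a median of 3.93 in Flvcr-deleted cells, 0 to 8.81 with a median of 5.55 in EPO-treated cells, and 0 to 9.85 with a median of 7.74 in wild-type cells. Ect2, the activator of RhoA at the cleavage site, differed by -1.94, the ring scaffold Anln by -1.75 and Kif4 by -1.74. Kif20b, at -1.07, had unlike signs in the classes.

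All 7 genes of chromosome structure were lower. Top2a, the topoisomerase that untangles chromatids, had log2 levels of 0 to 7.50 with a median of 5.18 in Flvcr-deleted cells, 0 to 8.56 with a median of 6.55 in EPO-treated cells, and 3.68 to 9.80 with a median of 7.54 in wild-type cells, a difference of -3.32 between Flvcr-deleted and wild-type cells. Mki67, the surfactant of mitotic chromosomes and a common proliferation marker, had medians of 5.07, 7.35 and 7.76 in the same order and differed by -2.91. Within condensin I the difference was -2.31 for Ncapd2, -2.47 for Smc4, -2.85 for Smc2, -3.48 for Ncapg and -3.81 for Ncaph. Ncaph was detected in 5 of 30 Flvcr-deleted, 7 of 24 EPO-treated and in 31 of 42 wild-type cells, while Smc4 was detected in 25 of 30, 24 of 24 and 42 of 42.

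**Figure D3:**
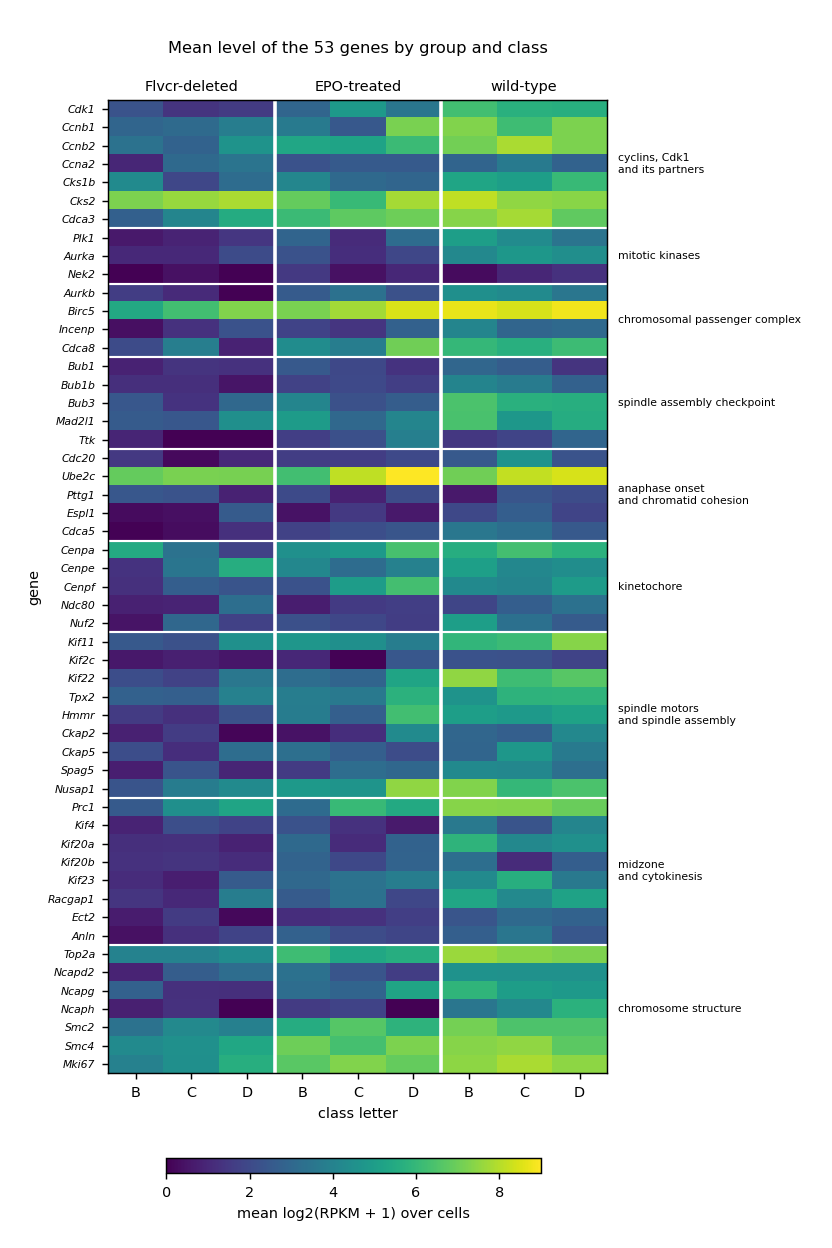
Mean log2(RPKM + 1) of each of the 53 genes over the cells of classes B, C and D (columns) of the Flvcr-deleted, EPO-treated and wild-type group; colour gives the level and white lines part the groups and the roles. Cks2, Ube2c and Birc5 are bright in every group, while Cdk1, Bub3, Ncaph and Kif20a are dark in Flvcr-deleted cells, with class-weighted differences from wild-type of -4.16, -3.66, -3.81 and -3.76.

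Across the 53 genes, which are not independent replicates and share every cell, Spearman's rho was taken between the difference and 2 gene properties. With transcript length it was 0.04 for Flvcr-deleted minus wild-type, 0.10 for EPO-treated minus wild-type and -0.11 for Flvcr-deleted minus EPO-treated cells. With mean level it was -0.42, -0.05 and -0.41 in the same order, so differences involving Flvcr-deleted cells tended to be larger in genes of higher level. The part of level was not tested. Genes with a CHR match had 33 of 37 lower with a median difference of -2.57, and those without 6 of 10 with a median of -2.11; the 2 sets were not tested against each other.

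EPO-treated and wild-type cells differed less, in a comparison that shares its wild-type cells with the one above. Of the 53 genes 28 (52.8%) were lower and 0 higher in EPO-treated cells, against 42% lower and 0.512% higher of all genes (5.31% and 0.0781% with no filter), a share not far from the background. The median difference was -1.30 over the set and -0.99 over all genes, and by class the set's median was -1.42 in B, -1.44 in C and -0.34 in D. Among cells with 1000 to 2000 detected genes 10 of 53 were lower and 3 higher, against 14% and 7.99% of all genes, with medians of -0.93 and -0.06. The count was 10 when ratios of mean RPKM were used in place of mean log2 levels.

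By role, 4 of 7 cyclins and partners of Cdk1, 2 of 3 mitotic kinases and 2 of 4 passenger genes were lower in EPO-treated cells. So were 3 of 5 checkpoint genes, 3 of 5 anaphase genes and 2 of 5 kinetochore genes. Of the rest, 4 of 9 spindle genes, 5 of 8 cytokinesis genes and 3 of 7 chromosome structure genes were lower. Of all genes 42% were lower. The passenger (50%), kinetochore (40%), spindle (44.4%) and chromosome structure (42.9%) shares lay near that. Ncaph had the largest difference, -3.38 (-2.00, -2.39 and -5.76 in classes B, C and D), followed by Kif22 at -3.00, Bub3 at -2.94, Aurka at -2.69 and Kif20a at -2.53. Cdk1 differed by -2.12. The abundant genes of chromosome structure stayed nearer to wild-type: Smc4 at -0.33, Mki67 at -0.65 and Smc2 at -0.69 were not counted. Mki67 log2 levels ran from 2.01 to 9.52 with a median of 7.35 in EPO-treated cells and from 4.35 to 9.47 with a median of 7.76 in wild-type cells. Slightly positive differences were given by Ttk (0.50), Ube2c (0.24), Kif20b (0.23), Nek2 (0.13) and Cenpf (0.10), none of them counted. Mad2l1, counted as lower at -1.56, was at 0.34 in cells of like detection.

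Flvcr-deleted and EPO-treated cells can be set side by side with nearer numbers of detected genes, though the EPO-treated columns had another format and the comparison shares its cells with both above. Of the 53 genes 22 (41.5%) were lower and 0 higher in Flvcr-deleted cells, against 8.86% lower and 7.76% higher of all genes (1.04% and 0.863% with no filter). The median difference was -1.13 over the set and -0.12 over all genes; by class it was -1.32, -0.91 and -1.22 in B, C and D. In cells with 1000 to 2000 detected genes 7 of 53 (13.2%) were lower and 0 higher, against 7.64% and 9.92%, while the set's median was -1.06 and that of all genes 0.02. Leaving out each class D cell in turn gave 19 to 27 lower genes.

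By role, 5 of 7 genes of chromosome structure and 5 of 9 of the spindle group were lower in Flvcr-deleted than in EPO-treated cells, with 3 of 7, 1 of 3, 2 of 4, 1 of 5, 1 of 5, 1 of 5 and 3 of 8 in the cyclin, kinase, passenger, checkpoint, anaphase, kinetochore and cytokinesis groups. Of all genes 8.86% were lower in this comparison. Hmmr differed by -2.59, Cdca3 by -2.50, Cenpf by -2.43, Ttk by -2.27 and Mki67 by -2.26. Mki67 was lower in every class (-2.71, -2.84 and -1.22 in B, C and D) and was found in 24 of 30 Flvcr-deleted and in 24 of 24 EPO-treated cells. Smc2 and Smc4 differed by -2.16 and -2.14. Cdca8 had the lowest mean difference, -2.82, but at 0.06 in class C its classes had unlike signs. Among the differences near 0 were those of Ccna2 (0.04), Nuf2 (-0.17), Ncapd2 (-0.19) and Cks1b (-0.24), and Cks2 was at 0.65. Cdca5, counted as lower at -1.57, was at 0.11 in cells of like detection.

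**Figure D4:**
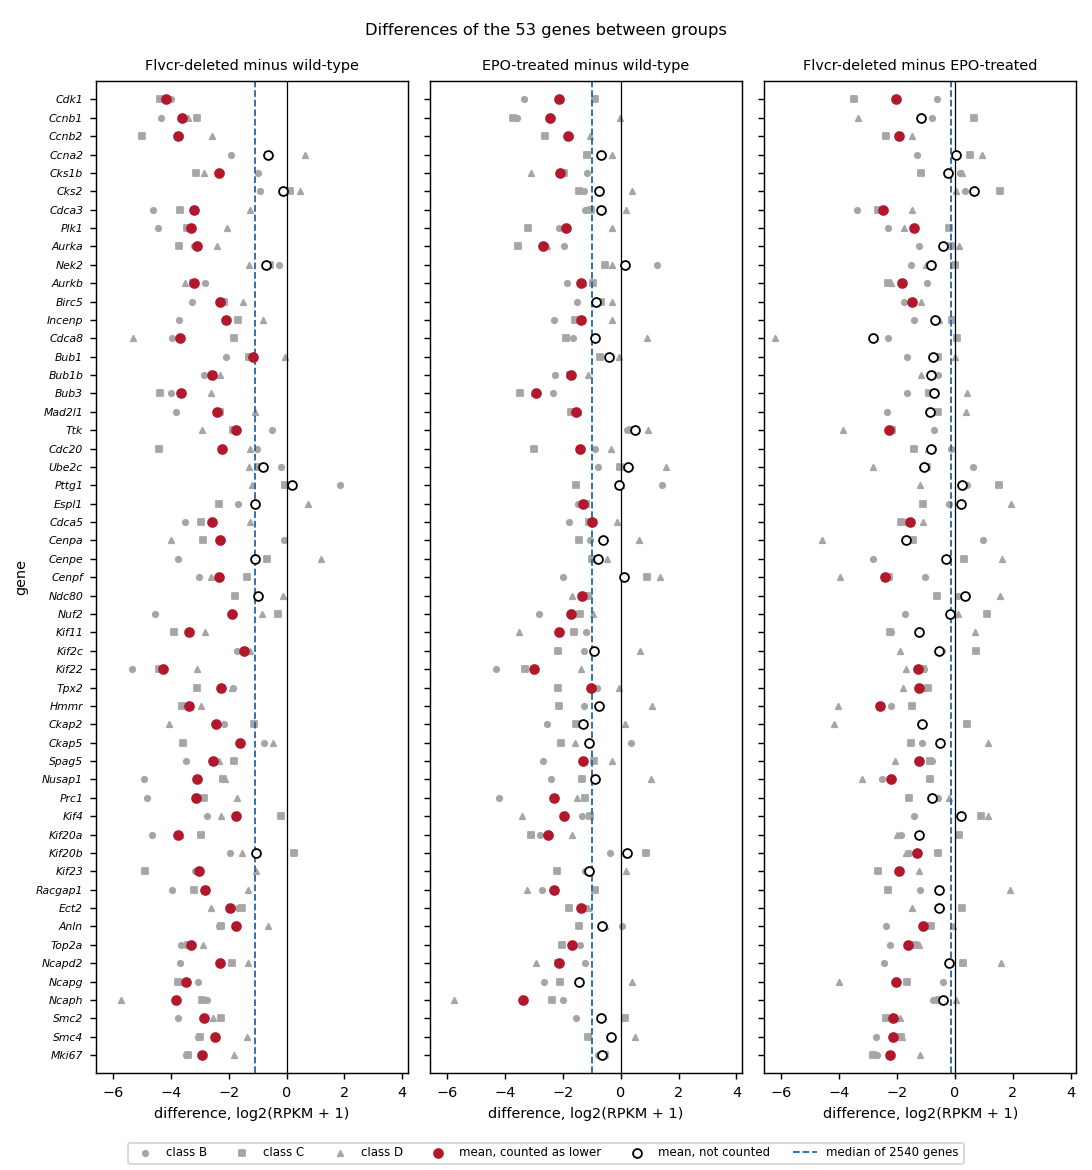
Difference in mean log2(RPKM + 1) of each of the 53 genes in the 3 comparisons; grey symbols are classes B, C and D, large symbols their mean, filled where counted as lower, and the dashed line is the median of 2540 genes. In the first panel 44 genes are filled, in the second 28 and in the third 22, and only in the third does the dashed line lie near 0 (-0.12).

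Joint detection of the partners of a complex was counted in single cells. Cdk1 with Ccnb1 or Ccnb2 was present in 36.7% of Flvcr-deleted cells (11 of 30, exact 95% interval 19.9 to 56.1%), 54.2% of EPO-treated (13 of 24, 32.8 to 74.4%) and 95.2% of wild-type (40 of 42, 83.8 to 99.4%). All 4 passenger genes were found together in 1 of 30, 4 of 24 and 23 of 42 cells, and all 5 condensin I genes in 1 of 30, 1 of 24 and 27 of 42. The condensin core pair Smc2 and Smc4 was present in 19 of 30, 23 of 24 and 42 of 42 cells. Centralspindlin, Kif23 with Racgap1, was present in 4 of 30, 11 of 24 and 29 of 42 cells; Tpx2 with Aurka in 8 of 30, 7 of 24 and 36 of 42; Ndc80 with Nuf2 in 5 of 30, 2 of 24 and 21 of 42. All 5 checkpoint genes were detected together in 0 of 30, 1 of 24 and 8 of 42 cells.

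The same sets were counted in cells with 1000 to 2000 detected genes. Cdk1 with a B-type cyclin was present in 6 of 12 Flvcr-deleted, 8 of 12 EPO-treated and in 16 of 18 wild-type cells, condensin I in 1 of 12, 0 of 12 and 10 of 18, and the passenger complex in 1 of 12, 1 of 12 and 8 of 18. Centralspindlin was present in 2 of 12, 6 of 12 and 13 of 18 cells. Of the other sets, Tpx2 with Aurka was present in 5 of 12, 4 of 12 and 14 of 18 cells, Ndc80 with Nuf2 in 3 of 12, 1 of 12 and 9 of 18, and Smc2 with Smc4 in 10 of 12, 12 of 12 and 18 of 18. The 5 checkpoint genes were found together in 0 of 12, 0 of 12 and 3 of 18. With 12 cells the exact interval of 0 of 12 reaches 26.5%, and the Flvcr-deleted and EPO-treated intervals overlapped for every set.

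Between classes D and B the median of the 53 genes lay above that of all genes in each group. The median difference of class D minus class B was 0.88 for the set and -0.43 for all genes in Flvcr-deleted cells, 0.27 and -1.36 in EPO-treated cells, and -0.21 and -0.90 in wild-type cells. In Flvcr-deleted cells 25 of 53 genes (47.2%) were higher by at least 1 in class D and 6 were lower, against 13.5% and 30.6% of all genes. In EPO-treated cells 16 were higher and 7 lower, against 10.9% and 58.3%, and in wild-type cells 9 were higher and 8 lower, against 5.39% and 46.1%. Class D held only 5 Flvcr-deleted and 4 EPO-treated cells. Without Flvcr-deleted cell 23, which held 43 of the 53 genes, 15 were higher; without EPO-treated cell 13, which held 16, 29 were higher. When every cell was scaled to 1 sum the median of the set was -0.50 in EPO-treated cells, and with ratios of mean RPKM it was 0.16 in wild-type cells, so for these groups no direction is given.

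In Flvcr-deleted cells the largest such difference was that of Cenpe, 4.26. Its log2 levels were 7.33, 5.89, 5.77, 3.09 and 5.91 in the 5 class D cells, against 0 to 6.98 with a median of 0 in the 16 class B cells; 4 of those 16 cells had it detected. Cdca3 followed at 2.78, with 6.35, 4.53, 8.90, 7.94 and 0 in class D and a median of 1.02 in class B, then Prc1 at 2.71, Ccna2 at 2.50 and Racgap1 at 2.44. Cenpa went the other way, at -3.74, as did Aurkb (-1.65), Ncapg (-1.58), Pttg1 (-1.58), Cdca8 (-1.20) and Cks1b (-1.13). In EPO-treated cells Cenpf gave the largest difference, 4.03. Its log2 levels were 6.39, 5.66, 6.87 and 6.30 in the 4 class D cells, against 0 to 4.82 with a median of 2.65 in class B. Ckap2 followed at 3.89, with 0, 2.07, 7.28 and 7.92 in class D, against 0 to 3.29 with a median of 0 in class B, so its cells overlapped. Ube2c, at 3.74, had 9.58, 11.05, 9.57 and 9.79 in class D, against 0.24 to 9.23 in class B. These genes were named for the size of their differences. The share of all genes whose class D and class B cells do not overlap was not counted. In wild-type cells Ncaph (2.21), Ttk (1.49), Ndc80 (1.48) and Pttg1 (1.48) were highest, and Nuf2 (-2.45), Bub1 (-1.60) and Plk1 (-1.57) lowest.

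**Figure D5:**
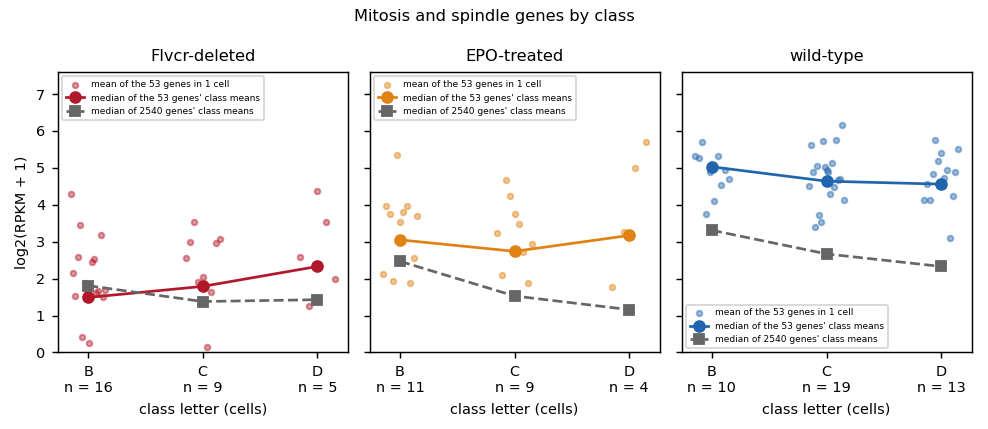
Log2(RPKM + 1) by class letter in Flvcr-deleted, EPO-treated and wild-type cells; small points are the mean of the 53 genes in 1 cell, joined circles the median of the 53 genes' class means, and joined squares that of 2540 genes. The circles run 1.49, 1.79 and 2.33 in classes B, C and D of Flvcr-deleted cells, 3.05, 2.74 and 3.17 in EPO-treated cells and 5.03, 4.64 and 4.56 in wild-type cells.

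Genes of DNA replication, which act in the phase before mitosis, were set beside the 53. Of 43 replication genes 35 (81.4%) were lower in Flvcr-deleted than in wild-type cells, against 48.3% of all genes, with a median of -2.38, led by Tk1 (2.84 in Flvcr-deleted and 6.91 in wild-type cells, a difference of -4.08) and Slbp (-3.94). In cells with 1000 to 2000 detected genes 5 of 43 (11.6%) were lower and 7 (16.3%) higher, at a median of 0.45, against 19.1% lower and 16% higher of all genes, shares near or below the background; the values of the mitotic set in these cells are given above. Between Flvcr-deleted and EPO-treated cells 5 of 43 replication genes (11.6%) were lower, against 8.86% of all genes, with a median of -0.56, Rrm2 at -1.81 and Tk1 at -1.62 having the largest differences. Between EPO-treated and wild-type cells 26 of 43 (60.5%) were lower, against 42% of all genes, with a median of -1.55, led by Mcm7 (-3.59) and Cdc6 (-3.35). In Flvcr-deleted cells 5 of 43 were lower and 12 higher in class D than in class B (median 0.15), against 30.6% lower and 13.5% higher of all genes. In EPO-treated cells 40 of 43 (93.0%) were lower (median -2.89), against 58.3% of all genes, and in wild-type cells 34 of 43 (79.1%) were lower (median -1.85), against 46.1%. The lists were not tested against each other.

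Mitotic genes of lists outside the set were also counted between Flvcr-deleted and wild-type cells, beside 48.3% lower of all genes: 7 of 15 subunits and regulators of the anaphase-promoting complex, 8 of 12 cohesin genes, 22 of 31 further kinetochore genes, 7 of 17 regulators of mitotic entry and transcription, 19 of 31 spindle and centrosome genes and 3 of 3 condensin II genes were lower. Smc1a and Smc3, the cohesin core, differed by -3.81 and -3.32; the kinetochore genes Cenph and Pmf1 by -2.87 and -2.64; Ckap2l and Tacc3 of the spindle by -3.52 and -2.66; Fbxo5, an inhibitor of the anaphase-promoting complex, by -2.79 and its subunit Anapc5 by -2.55; Rbbp4 and Ensa of the entry list by -2.76 and -1.98; Ncapg2 and Ncapd3 of condensin II by -2.78 and -2.27. Between EPO-treated and wild-type cells the counts were 6 of 15 (40%), 5 of 12 (41.7%), 11 of 31 (35.5%), 4 of 17 (23.5%), 14 of 31 (45.2%) and 2 of 3, against 42% of all genes. All but the list of 3 genes thus had shares near or below that of all genes. The largest differences of each list were those of Anapc5 (-3.14), Fbxo5 (-1.98), Rad21 (-2.24), Smc3 (-2.21), Pmf1 (-2.61), Zwint (-2.48), Rbbp4 (-2.63), Cdc25b (-2.23), Tacc3 (-2.40), Ckap2l (-1.89), Ncapd3 (-2.00) and Ncapg2 (-1.48). Between Flvcr-deleted and EPO-treated cells the counts were 0 of 15, 2 of 12 (16.7%), 4 of 31 (12.9%), 1 of 17 (5.88%), 5 of 31 (16.1%) and 1 of 3, against 8.86% of all genes. Smc1a (-2.34) and Mapre1 (-1.92) had the largest differences. Next were Kif18a (-1.86), Esco2 (-1.56), Ensa (-1.45), Cenpm (-1.29) and Ncapg2 (-1.29), while Anapc13 was at 0.96.

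Of 20 regulators of cell cycle exit 5 (25%) were lower and 2 (10%) higher in Flvcr-deleted than in wild-type cells, against 48.3% and 3.74% of all genes, with a median of -0.04; Ccnd3, the D-type cyclin tied to the number of erythroid divisions, differed by -3.31 and the Cdk inhibitor Cdkn2d by -2.60. Between EPO-treated and wild-type cells 5 of 20 (25%) were lower, against 42% of all genes, led by Cdkn2d (-1.93) and Btg2 (-1.84). Between Flvcr-deleted and EPO-treated cells 1 was lower and 3 (15%) higher, against 8.86% and 7.76% of all genes, with Btg1, an antiproliferative gene, at 4.00 in Flvcr-deleted and 1.87 in EPO-treated cells (2.13) and Ccnd3 at -1.58. Of 13 genes tied to erythroblast enucleation 5 (38.5%) were lower and 1 higher in Flvcr-deleted than in wild-type cells, below the 48.3% lower of all genes, with Cfl1 (cofilin) at -2.61 and Rac2 at -2.19, and 3 (23.1%) were lower in EPO-treated than in wild-type cells, below the 42% of all genes, with Rac2 at -1.69 and Cfl1 at -1.52. Between Flvcr-deleted and EPO-treated cells 2 of 13 (15.4%) were lower, against 8.86% of all genes, and Diap3, a formin, differed by -1.23 and Cfl1 by -1.10.

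Class A held unlike cells. Of the granulocyte and monocyte markers at least 3 were found in 1 of 18 Flvcr-deleted, 4 of 7 EPO-treated and 5 of 6 wild-type class A cells. At least 3 of the 14 erythroid markers were found in 17 of 18, 5 of 7 and 4 of 6 class A cells in the same order. In wild-type class A cells 10 of the 14 were detected in some cell, while Alas2, Epb4.2, Slc4a1 and Ank1 were detected in none. The median number of the 53 genes detected was 9.5 (2 to 36) in Flvcr-deleted, 17 (10 to 26) in EPO-treated and 19 (5 to 30) in wild-type class A cells. The median difference between Flvcr-deleted and wild-type cells was -0.25 for the set, with 16 genes lower and 2 higher, while that of all genes was -1.66 with 63.7% lower and 2.76% higher; between EPO-treated and wild-type cells it was 0 with 10 lower and 6 higher (50.3% lower and 7.87% higher of all genes), and between Flvcr-deleted and EPO-treated cells -0.62 with 17 lower and 4 higher (35.4% lower and 5.83% higher of all genes). Mki67 was detected in 11 of 18, 5 of 7 and 5 of 6 class A cells and Cdk1 in 6 of 18, 4 of 7 and 5 of 6. Flvcr-deleted class A labels carried a suffix a or d on 9 cells each: suffix d cells had a median of 343 genes and 3 of the 53 detected, suffix a cells 1381 and 19. The part of these other cells in the class A values was not tested.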

How the data were processed

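Per the labels' protocols, marrow cells were captured singly on the Fluidigm C1, Ter119 was imaged, and SMART-Seq cDNA went into Nextera XT libraries. The values are RPKM, deposited by the authors as 1 table of 34898 RefSeq rows; the submitters' processing notes name TopHat2 2.0.9 and the build mm9. No counting tool or filter is named there. Of the columns 4 had no sample and were not used, and 0 pairs of cells were identical.

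From these values 1 row per symbol was kept, that with the highest mean RPKM (15 of the 53 genes had several), and log2(RPKM + 1) was taken, which understates differences of low genes. Cells with a class letter B, C or D were averaged per class and the 3 class differences averaged with equal weight. No test was run, since each group was 1 sample. Shares have exact (Clopper-Pearson) 95% intervals for counting error only. Depth was estimated by taking the densest point among the lowest products of RPKM and transcript length in a cell as 1 read; lengths came from GENCODE vM21, of another build than the table, so it is approximate. Promoters and motifs came from RefSeq sequences. The members and lists were chosen with earlier results of these data known. The rule for named genes took all 53 and, of each other cell cycle list, the 2 kept genes with the largest absolute difference in each comparison. Alternatives were other pseudocounts, scalings, class sets, detection levels and ratios of means, and, added after seeing the data, leaving out each class D cell of Flvcr-deleted and EPO-treated cells. The scripts, in Python 3.11.15 with numpy 2.4.6, pandas 2.3.3 and scipy 1.17.1, were tested on simulated data.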

Additional observations from a re-analysis of the deposited data

Results flagged for a closer look

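Class D minus class B had opposite signs, each of a size of at least 1, between groups for 11 pairs of groups among the 53 genes; whether the groups differ was not tested, and class D held 5 Flvcr-deleted and 4 EPO-treated cells. Between Flvcr-deleted and wild-type cells these were Incenp (1.87 in Flvcr-deleted and -1.02 in wild-type cells), Pttg1 (-1.58 and 1.48), Cdca5 (1.19 and -1.06) and Nuf2 (1.27 and -2.45). Between EPO-treated and wild-type cells they were Ncapg (2.01 in EPO-treated and -1.05 in wild-type cells) and Ncaph (-1.55 and 2.21). Between Flvcr-deleted and EPO-treated cells they were Cdca8 (-1.20 in Flvcr-deleted and 2.70 in EPO-treated cells), Cenpa (-3.74 and 1.84), Ckap5 (1.08 and -1.19), Ncapd2 (2.33 and -1.73) and Ncapg (-1.58 and 2.01). In each pair the first value is that of the group named first. No cell stood far from the others of its class in 14 combinations of class and measure that were small enough to look at.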

How the results depend on the processing

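Of 171 alternative values of 19 summary results 155 moved little and 16 moved more. A median counted as moved little where it shifted by less than the standard deviation between single cells, a wide allowance. Counts were judged by their ratio and shares by their exact interval. By this rule even EPO-treated class D minus class B medians of -0.32 to 1.11, with single class D cells left out, moved little. No summary value of a size of at least 1 changed sign, but smaller class D minus class B medians did: that of EPO-treated cells, 0.27, came to -0.50 when cells were scaled to 1 sum, and that of wild-type cells, -0.21, was 0.16 with ratios of means. With a pseudocount of 0.1 the median of the 53 genes between Flvcr-deleted and wild-type cells was -3.63, and with 10 it was -1.24; a pseudocount of 10 left 12 genes lower between EPO-treated and wild-type cells and 14 between Flvcr-deleted and EPO-treated cells. With 4 classes 29 and 15 genes were lower in Flvcr-deleted and EPO-treated cells against wild-type cells, and with ratios of mean RPKM 10 between EPO-treated and wild-type cells. In cells with 1000 to 2000 detected genes the counts of lower genes were 27, 10 and 7 in the 3 comparisons, and the Flvcr-deleted median number of the 53 genes detected was 32. There the EPO-treated class D minus class B median was 2.39, with 2 class D cells left. Detection at 10 RPKM gave a wild-type median of 37.5 genes and Cdk1 in 23.3% of Flvcr-deleted cells, against 43.3% at 1 RPKM. In cells with 1000 to 2000 detected genes Bub1 (Flvcr-deleted minus wild-type) was 0.02, Mad2l1 (EPO-treated minus wild-type) 0.34, and 0.24 with ratios of means, and Cdca5 (Flvcr-deleted minus EPO-treated) 0.11. The cause of these shifts was not tested.

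Leaving out each class D cell in turn, chosen after seeing the data, gave 42 to 46 lower genes and medians of -2.55 to -2.39 between Flvcr-deleted and wild-type cells, 21 to 31 and -1.57 to -0.99 between EPO-treated and wild-type cells, and 19 to 27 and -1.32 to -0.82 between Flvcr-deleted and EPO-treated cells. For class D minus class B it gave 15 to 31 higher genes and medians of 0.35 to 1.41 in Flvcr-deleted cells, and 16 to 29 and -0.32 to 1.11 in EPO-treated cells, where the median was -0.32 without cell 27 and -0.12 without cell 18. Scaling every cell to 1 sum moved the median of all genes between Flvcr-deleted and wild-type cells to -1.32, and without globins to -0.91, with 46 and 41 of the 53 genes lower. No paired analysis was possible because the cell numbers only name cells and no result comes from a test.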
